A study of Homo sapiens with 8 samples.

Results

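The factors of nonsense-mediated decay examined here are 9 genes: SMG1, SMG5, SMG6, SMG8, SMG9, UPF1, UPF2, UPF3A and UPF3B. They were taken from the count table by gene name, which gave 9 of its 58302 rows, and all 9 passed the filter on low counts. The family was chosen by measured values: SMG5 was among the genes with the smallest p between KIF3B-/- and control cells of the line WTC11. The 9 members' values from that comparison, and from the one that pools it with the other knockout, are therefore described without a test. For genes of other lists, p-values from the KIF3B-/- comparison are given, but those lists were chosen with earlier results of these data known. Messenger RNA was sequenced from undifferentiated, untreated human pluripotent stem cells grown in mTeSR1 without feeder cells, with 100 to 1000 cells per library. There were 2 control libraries (guide RNAs 1 and 2) and 3 libraries labelled KIF3B-/- (guides 1, 1 and 2) of WTC11, which is an induced pluripotent line, and 2 control libraries and 1 labelled KIF3A-/- (guide 1 throughout) of the embryonic line WA09. KIF3A and KIF3B are motor subunits of kinesin-2, which carries cargo into the primary cilium. Several clones are mentioned for the series, but no label ties a library to a separate clone or culture, so a p here measures only how far these libraries vary, possibly for technical reasons.

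Nonsense-mediated decay removes messenger RNAs on which the ribosome stops at a premature or unusual stop codon, and it also sets the level of many normal transcripts. UPF1, an RNA helicase, is the centre of the pathway. UPF2 and a UPF3 protein join it to the exon junction complex left behind by splicing, the kinase SMG1 with its partners SMG8 and SMG9 phosphorylates it, and phosphorylated UPF1 recruits SMG5 and the endonuclease SMG6, which start the decay. Messenger RNAs of several of these factors are themselves known targets of the pathway.

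The members' promoters are shown for the gene with the largest fold change in the KIF3B-/- libraries and for 3 UPF genes that, like it, hold a CCAAT box, the core letters bound by NF-Y. Each sequence gives the 250 bases before the RefSeq transcription start (GRCh38.p14), 5′ to 3′ on the gene's strand, with matches to any of the 6 motifs searched on both strands in capitals. The SMG5 window lies at chr1:156282826-156283075 (minus strand), that of UPF1 at chr19:18831709-18831958 (plus), that of UPF2 at chr10:12043171-12043420 (minus) and that of UPF3B at chrX:119852964-119853213 (minus).
SMG5: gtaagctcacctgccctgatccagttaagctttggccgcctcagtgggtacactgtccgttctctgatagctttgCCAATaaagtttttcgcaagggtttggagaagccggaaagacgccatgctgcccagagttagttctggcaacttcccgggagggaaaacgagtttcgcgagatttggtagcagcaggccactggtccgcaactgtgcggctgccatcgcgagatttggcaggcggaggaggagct
UPF1: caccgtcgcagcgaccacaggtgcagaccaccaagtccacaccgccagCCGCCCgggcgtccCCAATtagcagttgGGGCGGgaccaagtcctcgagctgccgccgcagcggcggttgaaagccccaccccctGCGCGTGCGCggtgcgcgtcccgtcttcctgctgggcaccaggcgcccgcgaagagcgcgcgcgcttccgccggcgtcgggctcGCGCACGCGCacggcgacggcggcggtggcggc
UPF2: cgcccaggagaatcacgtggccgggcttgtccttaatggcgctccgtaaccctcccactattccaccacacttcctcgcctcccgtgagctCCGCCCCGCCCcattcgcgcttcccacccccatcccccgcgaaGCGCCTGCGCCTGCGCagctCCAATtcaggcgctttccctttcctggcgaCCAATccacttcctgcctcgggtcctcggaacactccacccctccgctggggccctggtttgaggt
UPF3B: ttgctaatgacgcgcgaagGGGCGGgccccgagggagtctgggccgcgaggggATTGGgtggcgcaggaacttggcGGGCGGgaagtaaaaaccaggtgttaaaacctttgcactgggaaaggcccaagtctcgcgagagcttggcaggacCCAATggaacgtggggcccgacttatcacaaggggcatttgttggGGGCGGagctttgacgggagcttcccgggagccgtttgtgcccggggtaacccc
A window was found for 8 members, all but SMG8. CCAAT was present in 4 of these 8 (SMG5, UPF1, UPF2 and UPF3B) and in 32% of all 35116 promoter windows. The NRF1 motif was present in 4 of 8 (SMG6, SMG9, UPF1 and UPF2) and in 5.07% of windows; the 2 matches in UPF2 overlap. The SP-type GC box GGGCGG was in 6 of 8, with SMG5 and SMG9 the exceptions, and in 42.6% of windows. The ETS motif CCGGAAG was in 1 of 8 (UPF3A, 8.52% of windows), while neither the YY1 motif AAGATGGC (1.36%) nor the cyclic AMP response element TGACGTCA (1.65%) was found in a member. SMG5 thus held 1 match in all, to CCAAT, and its 55.6% GC lay below the 75.6% of UPF1, the 66% of UPF2 and the 62.8% of UPF3B; the median of all windows was 58%. Such matches describe letters and show neither binding nor regulation.

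The libraries held 2161890 to 2875163 counts and detected 16658 to 18562 genes, and the upper limit for an uncounted gene, 3 counts, came to 1.04 to 1.39 CPM (counts scaled to a common library total); it covers counting error only. KIF3B was counted 129, 86 and 107 times in the libraries labelled KIF3B-/- and 71 and 59 times in their controls, and KIF3A 75 times in the library labelled KIF3A-/- and 174 and 167 times in its controls. KIF3B RNA was thus not lower in the libraries labelled KIF3B-/-, and a count over the whole gene cannot show a small lesion, so directions given for that group rest on the labels. The 10 pluripotency markers summed to 3728 to 5378 CPM, with none at 0: 4812 to 5378 in the libraries labelled KIF3B-/-, 4161 to 4844 in the WTC11 controls, 3728 to 4298 in the WA09 controls and 4249 in the KIF3A-/- library. DNMT3B was the largest term. Log2 fold changes of single markers went both ways in the KIF3B-/- comparison, such as SALL4 at 0.63 and PODXL at 0.79 against POU5F1 at -0.25, SOX2 at -0.17 and NANOG at -0.10. Mesendoderm and neuroectoderm markers stayed under 10 CPM each in every library, and the 5 trophectoderm and amnion markers, 3 of them at 0, summed to 10.4 to 49.9 CPM. The 6 fibroblast markers, 2 of them at 0, summed to 510 to 788 CPM in the libraries labelled KIF3B-/-, 566 to 604 in the WTC11 controls, 602 to 636 in the WA09 controls and 622 in the KIF3A-/- library. In the KIF3B-/- comparison COL1A1 had a log2 fold change of 1.61 and COL1A2 of 0.74, both entirely above the controls, as were 16.5% of all genes. Both peaked in the second KIF3B-/- library: COL1A1 at 124 CPM against 37.05 and 34.1, and COL1A2 at 312 against 165 and 159. THY1, the most abundant of the 6, had a log2 fold change of -0.36 and lay entirely below the controls (18% of all genes). PDGFRB had a log2 fold change of 0.60 and overlapped the controls. The part of these differences in the results was not tested.

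Compared per kilobase of the longest coding transcript in GENCODE 29, SMG5 was the most abundant member and the large kinase SMG1, SMG9 and SMG6 were the least. Over all 8 libraries SMG5 averaged 45.2 ± 20.4 CPM per kilobase (SD), UPF3B 28.0 ± 6.02, SMG8 20.9 ± 5.97 and UPF1 20.9 ± 7.10. UPF3A followed at 14.7 ± 2.16 and UPF2 at 9.67 ± 2.62, and then SMG9 at 2.84 ± 1.72, SMG1 at 2.60 ± 1.19 and SMG6 at 2.16 ± 1.36. The order was clear at 1 step only: UPF2 lay above SMG9 in 8 of 8 libraries. UPF3A exceeded UPF2 in 7 of 8, UPF3B exceeded SMG8 and UPF1 exceeded UPF3A in 6 of 8, and SMG5 exceeded UPF3B and SMG1 exceeded SMG6 in 5 of 8. SMG8 and UPF1, and SMG9 and SMG1, could not be ordered, the first of each pair being higher in 3 and 4 of 8 libraries. The kinase complex was therefore uneven at the RNA level, with SMG8 far above SMG1 and SMG9. Transcripts in use may be shorter than the longest one, which would raise a gene's true level per kilobase.

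**Figure D1:**
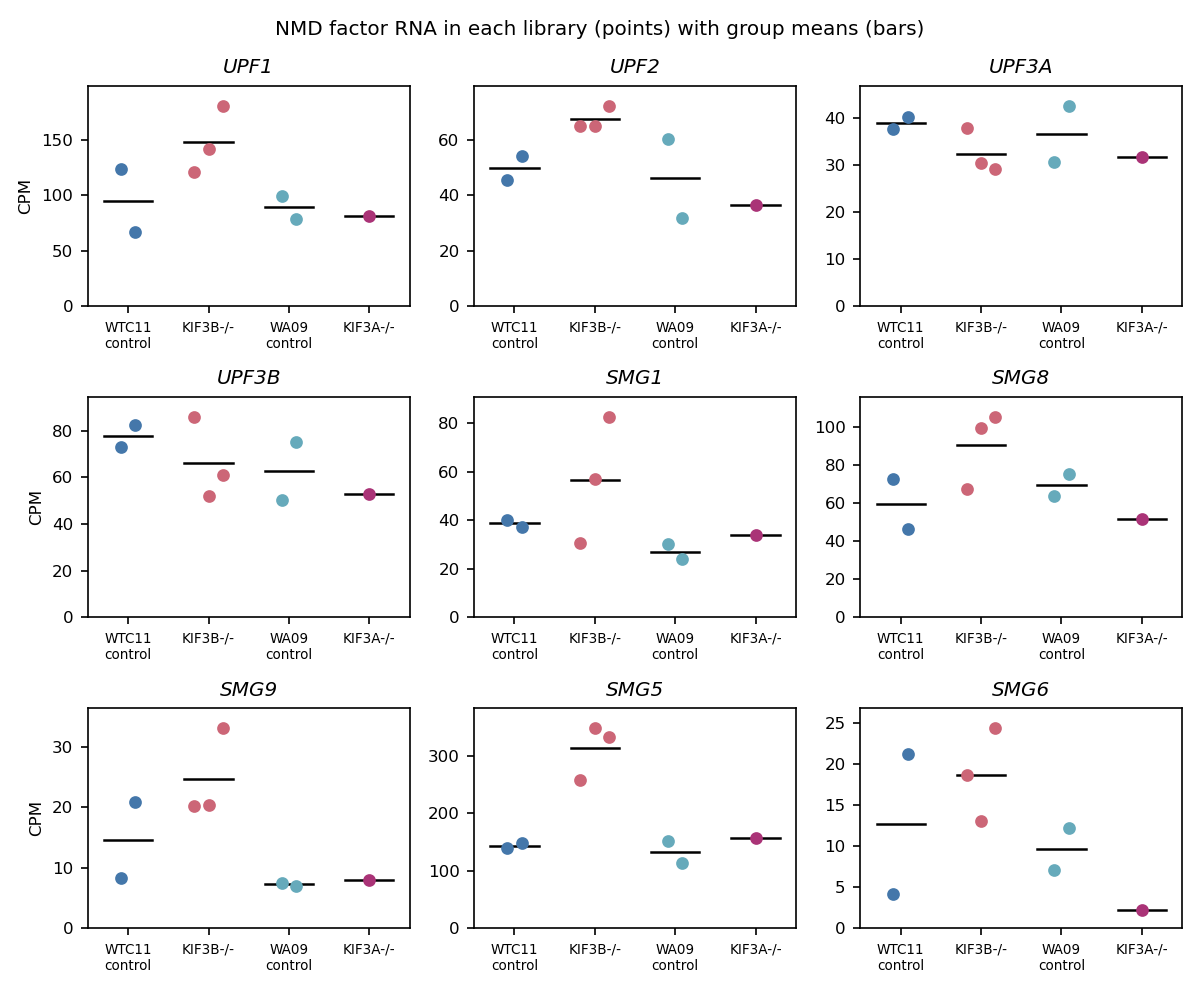
CPM of each of the 9 factors (1 panel per gene, each with its own axis) in each of the 8 libraries, with points coloured by group and a bar at the group mean. SMG5 is the panel with the widest gap between groups: its libraries labelled KIF3B-/- sit at 258 to 348 CPM and the other 5 libraries at 114 to 158.

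Among the UPF factors, the helicase UPF1 (ENSG00000005007, GRCh38 chromosome 19, 18831938 to 18868236, plus strand) stood at 123 and 66.6 CPM in the WTC11 controls and at 121, 142 and 180 in the libraries labelled KIF3B-/-. It stood at 99.7 and 78.5 CPM in the WA09 controls and at 81.2 in the KIF3A-/- library. The WTC11 groups overlapped, the first control lying level with the lowest knockout, and the KIF3A-/- library fell between its controls. The log2 fold change was 0.64 ± 0.27 (SE) in the libraries labelled KIF3B-/- and -0.13 ± 0.37 in the KIF3A-/- library (edgeR adjusted p = 1). The former was 1.15 without the first WTC11 control and 0.27 without the second. In bulk libraries, a different share of cells and a different amount of RNA per cell cannot be told apart.

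UPF2, the scaffold between UPF1 and UPF3 proteins (ENSG00000151461, chromosome 10, 11920022 to 12043170, minus strand), stood at 45.4 and 54.4 CPM in the WTC11 controls and at 64.9, 65.2 and 72.2 in the libraries labelled KIF3B-/-. These groups did not overlap, and the log2 fold change was 0.44 ± 0.29. In WA09 it stood at 60.4 and 31.8 CPM in the controls and 36.6 in the KIF3A-/- library, inside the wide gap between the 2 controls (-0.33 ± 0.40, edgeR adjusted p = 1).

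The paralogues UPF3A and UPF3B both bind the exon junction complex, and UPF3B is the stronger activator of decay. UPF3B (ENSG00000125351, chromosome X, 119805311 to 119852998, minus strand) stood at 72.9 and 82.5 CPM in the WTC11 controls, 85.9, 52.1 and 61.1 in the libraries labelled KIF3B-/-, 50.2 and 75.1 in the WA09 controls and 52.9 in the KIF3A-/- library. UPF3A (ENSG00000169062, chromosome 13, 114281584 to 114305817, plus strand) stood at 37.6 and 40.3, then 37.8, 30.4 and 29.1, then 30.6 and 42.6, and 31.8 CPM in the same order. Neither paralogue separated knockouts from controls in either line. They were the only members with a log2 fold change below 0 in the libraries labelled KIF3B-/- (UPF3B -0.23 ± 0.27, UPF3A -0.26 ± 0.29), and both also lay below 0 in the KIF3A-/- library (-0.25 ± 0.38 and -0.21 ± 0.40, edgeR adjusted p = 1 for each). UPF3B exceeded UPF3A per kilobase in all 8 libraries, at ratios of 1.95 and 2.05 in the WTC11 controls, 2.28, 1.72 and 2.11 in the libraries labelled KIF3B-/-, 1.65 and 1.77 in the WA09 controls and 1.67 in the KIF3A-/- library. UPF3A was the steadiest member, with a highest library 1.46 times its lowest.

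Of the kinase complex, SMG1 (ENSG00000157106, chromosome 16, 18804853 to 18926454, minus strand), the kinase that phosphorylates UPF1, stood at 40.3 and 37.2 CPM in the WTC11 controls and at 30.6, 56.9 and 82.6 in the libraries labelled KIF3B-/-. It stood at 30.2 and 24.1 CPM in the WA09 controls and at 34.0 (95% Poisson interval 26.8 to 42.4) in the KIF3A-/- library. The libraries labelled KIF3B-/- spread to both sides of their controls, and the KIF3A-/- library lay above both of its own. The log2 fold changes were 0.55 ± 0.39 and 0.32 ± 0.53 (edgeR adjusted p = 1 in the KIF3A-/- comparison). Without the third KIF3B-/- library the first became 0.17. The table also lists 7 SMG1 pseudogenes, near copies of parts of SMG1; 5 of them had any count, 74 in all against 830 for SMG1, and how reads shared by such copies were assigned is unknown here, so the SMG1 level is uncertain.

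SMG8, a regulator of SMG1 (ENSG00000167447, chromosome 17, 59209400 to 59215247, plus strand), stood at 72.9 and 46.7 CPM in the WTC11 controls, 67.6, 99.5 and 105 in the libraries labelled KIF3B-/-, 63.6 and 75.5 in the WA09 controls and 51.6 in the KIF3A-/- library. The WTC11 groups overlapped by 1 library, and the KIF3A-/- library lay below both of its controls. The log2 fold changes differed in sign, 0.60 ± 0.27 against -0.43 ± 0.37 (edgeR adjusted p = 1 for the latter). The former was 0.96 without the first WTC11 control and 0.32 without the second. Their difference was not tested. SMG8 shares 422 exon bases with AC099850.2 on the same strand, which had 0 counts.

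SMG9, the partner of SMG8 (ENSG00000105771, chromosome 19, 43727992 to 43754990, minus strand), stood at 8.25 and 20.9 CPM in the WTC11 controls, 20.2, 20.4 and 33.1 in the libraries labelled KIF3B-/-, 7.46 and 7.03 in the WA09 controls and 7.94 in the KIF3A-/- library. It was low in WA09 whatever the genotype, and the second WTC11 control lay among the libraries labelled KIF3B-/-. Its log2 fold changes were 0.76 ± 0.50 and 0.13 ± 0.71 (edgeR adjusted p = 1 for the latter). These rest on 18 to 92 counts per library, and the first moved to 0.24 without the first WTC11 control and to 1.57 without the second.

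SMG5, which binds phosphorylated UPF1 and brings in the decay and dephosphorylation machinery, was the member that differed most in the KIF3B-/- comparison (ENSG00000198952, chromosome 1, 156249224 to 156282825, minus strand). It was counted 304 and 327 times in the WTC11 controls, 675, 802 and 927 times in the libraries labelled KIF3B-/-, 385 and 308 times in the WA09 controls and 358 times in the KIF3A-/- library. In CPM this was 139 and 148, then 258, 348 and 333, then 151 and 114, and 158. Every library labelled KIF3B-/- exceeded every other library, while the KIF3A-/- library was only just above the higher of its controls. The group mean was 313 ± 48.5 CPM (SD, n = 3) in KIF3B-/- against 144 ± 6.29 (n = 2) in the WTC11 controls, a fold change of 2.18 and a log2 fold change of 1.12 ± 0.17, and this is the value for which the family was chosen. Leaving out each library in turn kept it between 1.04 and 1.24. In the KIF3A-/- library SMG5 stood at 158 CPM (95% Poisson interval 142 to 175) against 133 ± 26.2 (n = 2) in the WA09 controls, a log2 fold change of 0.25 ± 0.22 that did not pass the test (edgeR adjusted p = 1).

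SMG6, the endonuclease that cuts the target RNA near the stop codon (ENSG00000070366, chromosome 17, 2059839 to 2303771, minus strand), was the most variable and least counted member. It had 9 and 47 counts in the WTC11 controls, 49, 30 and 68 in the libraries labelled KIF3B-/-, 18 and 33 in the WA09 controls and 5 in the KIF3A-/- library. The 2 WTC11 controls lay at 4.12 and 21.3 CPM, a gap wider than the whole range of the 3 libraries labelled KIF3B-/- (13.0 to 24.4). The KIF3A-/- library had the lowest value, 2.21 CPM (95% Poisson interval 0.716 to 5.15), against 7.06 and 12.2 CPM in its controls, and its log2 fold change of -2.10 ± 1.09 had the smallest p of any member in that comparison without passing (unadjusted p = 0.0827, edgeR adjusted p = 1). In the libraries labelled KIF3B-/- the value was 0.56 ± 0.66, which became -0.18 without the first WTC11 control and 2.17 without the second. SMG6 shares 2419 exon bases with HIC1 on the opposite strand, a gene with 6 counts over all 8 libraries, and 68 bases with SRR (76 counts); whether the counting used strand is unknown here.

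The comparison of the KIF3A-/- library with the WA09 controls is the test whose libraries the choice of the family did not use. Its spread was estimated from all 8 libraries, and with 1 knockout library it cannot show that the members were unchanged. With edgeR 0 of 9 members passed at an adjusted p under 0.05, beside 0% of the 14216 genes tested, and DESeq2 and limma voom also called 0 of 9. At an unadjusted p under 0.05 there were 0 of 9 members against 3.71% of all genes. Fold changes were above 0 for 3 of 9 members (SMG1, SMG5 and SMG9; 48% of all genes) and below 0 for 6. The KIF3A-/- library lay above both controls for 3 members (SMG1, SMG5 and SMG9; 33.8% of all genes) and below both for 2 (SMG6 and SMG8; 33% of all genes). The members' median log2 fold change was -0.21 and that of all genes -0.015. Its sign rests on single controls, since it became 0.043 without the first WA09 control and 0.052 without the second. The 1 knockout library was taken to vary like the other groups, and the SEs ran from 0.22 for SMG5 to 1.09 for SMG6.

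In the comparison of the control libraries of WTC11 and WA09, which shares the 2 WTC11 controls with the KIF3B-/- comparison, no member passed either. With edgeR 0 of 9 members were called, against 0.0281% of all genes, and 0 of 9 had an unadjusted p under 0.05, against 15% of all genes; DESeq2 and limma voom called 0 of 9. The log2 fold change was above 0, higher in WTC11, for 8 of 9 members (49.4% of all genes), the exception being SMG8 at -0.22 ± 0.30. That count was 5 of 9 without the second WA09 control and 6 of 9 with detected genes as a covariate. WTC11 lay entirely above WA09 for 2 members (23.6% of all genes): SMG9 at 1.00 ± 0.56 (edgeR adjusted p = 0.436) and SMG1 at 0.51 ± 0.43 (edgeR adjusted p = 0.613). For SMG5 the controls overlapped at 0.12 ± 0.19 (edgeR adjusted p = 0.808), and without the second WA09 control the value was -0.071.

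In the libraries labelled KIF3B-/-, described without a test, 7 of 9 members had a log2 fold change above 0, beside 51.7% of all genes, and their median was 0.56 beside 0.026 for all genes. Only SMG5 and UPF2 lay entirely above the WTC11 controls, 2 of 9 members beside 16.5% of all genes, and 0 of 9 lay entirely below, beside 18%. The median was 0.31 without the first WTC11 control, 0.38 without the third KIF3B-/- library and 0.76 without the first KIF3B-/- library. With the number of detected genes as a covariate it was 0.32 and 5 of 9 members were above 0, as SMG9 moved to -0.10 and SMG6 to -0.81. Across all knockouts and controls, with line as an additive term, 6 of 9 members were above 0 (50.9% of the 12210 genes tested there) with a median of 0.25. SMG5 led at 0.82 ± 0.19. That median was 0.55 without the KIF3A-/- library and 0.14 without the third KIF3B-/- library.

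**Figure D2:**
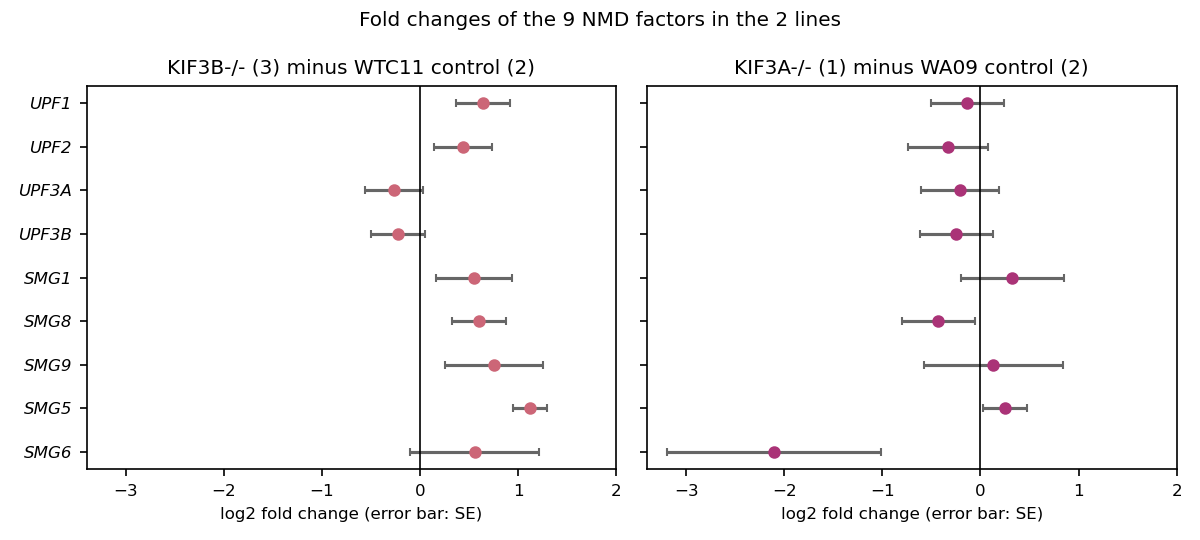
Log2 fold changes (points) with SE (bars) of the 9 factors in the 3 libraries labelled KIF3B-/- against 2 WTC11 controls (left) and in the 1 KIF3A-/- library against 2 WA09 controls (right). SMG5 stands at 1.12 on the left and 0.25 on the right, and SMG6 has the widest bars in both panels.

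In the KIF3A-/- library all 9 members lay below their own averages over the 8 libraries, which include the 3 libraries labelled KIF3B-/-. Against its WA09 controls, however, that library lay above both for SMG1, SMG5 and SMG9 and below both for SMG6 and SMG8. In each of the other 7 libraries the members lay on both sides of their averages. The share of all genes below their averages was not computed. In the 3 libraries labelled KIF3B-/-, 7 of 9 members each were above their mean over the 8 libraries, and the mean of the 9 centred log2 values was 0.27, 0.34 and 0.64. The WTC11 controls had 5 of 9 each above (-0.21 and 0.059), the WA09 controls 1 and 4 of 9 (-0.28 and -0.29), and the KIF3A-/- library 0 of 9 (-0.53). The third KIF3B-/- library was the highest of all for 6 members (SMG1, SMG6, SMG8, SMG9, UPF1 and UPF2), but not for SMG5, which peaked in the second, nor for either UPF3 paralogue. Summed over the family, CPM ran from 705 to 921 in the libraries labelled KIF3B-/- and from 456 to 544 in the other 5. That sum includes SMG5, for whose values in the KIF3B-/- comparison the family was chosen. SMG5 made up 36.6%, 42.1% and 36.1% of that sum in the libraries labelled KIF3B-/-, 25.6% and 28.6% in the WTC11 controls, 30.2% and 24.7% in the WA09 controls and 34.6% in the KIF3A-/- library.

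Transcript length moved with the KIF3B-/- comparison. Relative to the mean of all libraries, log2 CPM moved by 0.069, 0.17 and 0.20 per doubling of transcript length in the libraries labelled KIF3B-/-. The slope was -0.11 and -0.037 in the WTC11 controls, -0.050 and -0.14 in the WA09 controls and -0.10 in the KIF3A-/- library. The members' longest transcripts have a median of 5348 bases, against 3585 for 14199 tested genes with a known length. The short UPF3A (2423 bases) and UPF3B (2378 bases) were the members with values below 0. SMG8 (3477 bases), also shorter than the median tested gene, stood at 0.60. With each library's length trend removed, the members' median in the KIF3B-/- comparison became 0.36. SMG5 (4559 bases) then stood at 0.96, UPF1 at 0.43, UPF2 at 0.23 and SMG1 (16115 bases) at 0.16. SMG9 stood at 0.56, SMG8 at 0.52 and SMG6 at 0.36, while UPF3A stood at -0.19 and UPF3B at -0.14. The value of SMG1 moved most, and no member changed sign.

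**Figure D3:**
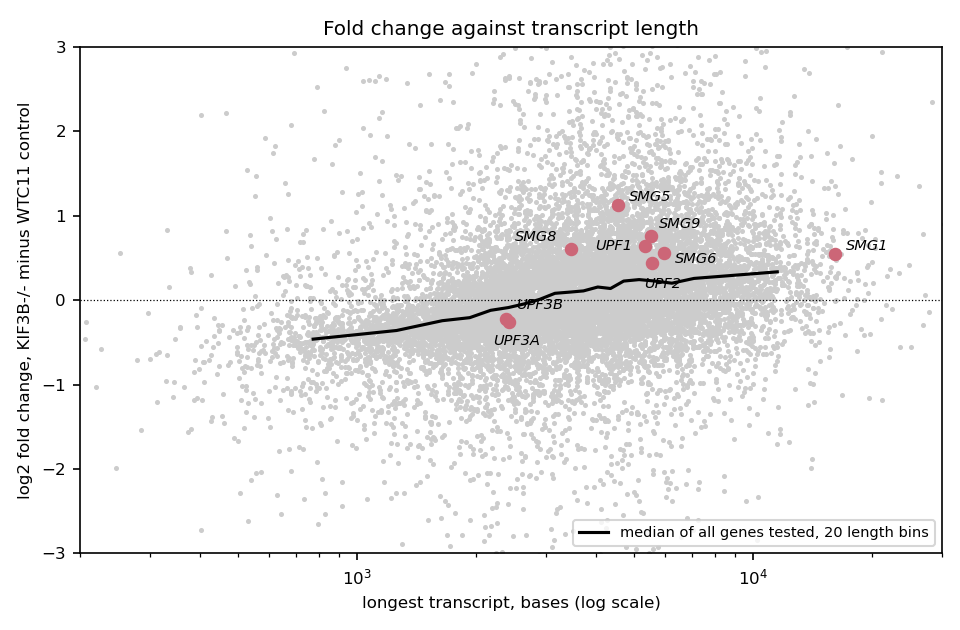
Log2 fold change in the libraries labelled KIF3B-/- against the length of the longest transcript in bases (log axis), with all tested genes of known length in grey, their median in 20 length bins as a black line and the 9 factors labelled (411 genes lie outside the plotted range). The longest member, SMG1, lies at 0.55, the 2 shortest, UPF3A and UPF3B, lie below 0, and SMG5 stands above the other members at 1.12.

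The genes whose pattern over the 8 libraries was nearest to that of SMG5, by root mean square difference of centred log2 CPM among 10410 genes with a mean of at least 10 CPM, were CLCN7 (0.127), PXDN (0.151), ZBTB39 (0.156), USP9X (0.160) and FBXO30 (0.163), where the median gene was at 0.646. They share the libraries and their length trend with SMG5 and, at 4720 to 12401 bases, are all longer than it. Nearest to the mean of the 9 members were SMARCD1 (0.0823), USP22 (0.0916), LRRC8A (0.0929), NPEPPS (0.0986) and WDR62 (0.106), against a median of 0.483. None of the 10 is a decay factor by name.

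The remaining decay machinery was followed in lists of known components, none of whose genes passed the edgeR test in the KIF3A-/-, KIF3B-/- or control-line comparison (0%, 0% and 0.0281% of all genes did). Among 10 other cofactors of the pathway, 5 had log2 fold changes above 0 in the libraries labelled KIF3B-/- (median 0.028) and 5 in the KIF3A-/- library (median 0.029); 3 and 1 of them had an unadjusted p under 0.05, beside 16.6% and 3.71% of all genes, and DESeq2 called 1 and 0 of them beside 255 and 1 of all 14216 genes. Of the 2 most abundant, RUVBL2, an ATPase that helps assemble SMG1-type kinases, stood at 285 ± 7.59 CPM in KIF3B-/- against 329 ± 27.1 in the WTC11 controls (-0.21 ± 0.098, edgeR adjusted p = 0.326). The nucleolar GTPase GNL2 stood at 306 against 336 CPM (-0.14). The list's median changed sign in the KIF3B-/- comparison without the first WTC11 control (-0.090), with the length trend removed (-0.045) and with the detected-gene covariate (-0.13). It was 0.13 and 0.16 in the KIF3A-/- comparison without the first and the second WA09 control.

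Of the exon junction complex, on which UPF3 proteins dock, 4 of 12 genes had log2 fold changes above 0 in the KIF3B-/- comparison (median -0.15), 10 of 12 in the KIF3A-/- library (0.20) and 12 of 12 in WTC11 against WA09 controls (0.34). With the length trend removed, 7 of 12 were above 0 in the KIF3B-/- comparison (0.010). The KIF3B-/- median was -0.045 without the second WTC11 control and -0.30 with the detected-gene covariate, and 2 of 12 were above 0 without the first WTC11 control. The KIF3A-/- median was 0.30 without the second WA09 control. At an unadjusted p under 0.05 there were 3 of 12 in KIF3B-/-, 0 in KIF3A-/- and 5 between control lines, beside 16.6%, 3.71% and 15% of all genes, and DESeq2 called 0 in each. EIF4A3, the helicase core of the complex, stood at 289.8 CPM in KIF3B-/- against 271 (0.097 ± 0.14) and at 244 in the KIF3A-/- library against 209 (0.23 ± 0.20). RNPS1 stood at 298 against 322 (-0.12) and at 292 against 258 CPM (0.18).

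Translation termination and cap-binding genes, which act before UPF1 does, had 7 of 11 above 0 in both knockouts (medians 0.11 and 0.16). The first became 4 of 11 (-0.033) without the length trend, 0.067 without the first WTC11 control and 0.065 with the detected-gene covariate, and the second became 6 of 11 (0.006) without the second WA09 control. GSPT1, the release factor eRF3a, stood at 378 CPM in KIF3B-/- against 312 in the WTC11 controls (0.28 ± 0.11), and EIF4G1 at 397 against 319 (0.32). Decapping and deadenylation genes, which degrade RNA after SMG5 has acted, had 14 of 20 above 0 in the KIF3B-/- comparison (0.14; 11 of 20 and 0.068 without the length trend) and 9 of 20 in the KIF3A-/- comparison (-0.011). The KIF3B-/- median was -0.045 (10 of 20) with detected genes as a covariate, and ran from 0.069 (11 of 20) without the first WTC11 control to 0.34 (15 of 20) without the second. The KIF3A-/- median was 0.039 with detected genes as a covariate and -0.076 without the second WA09 control. The nuclear exonuclease XRN2 stood at 302 CPM in KIF3B-/- against 324 (-0.098) and the deadenylase CNOT7 at 307 against 321 (-0.067). Exosome and ribosome rescue genes had 5 of 17 above 0 in the KIF3B-/- comparison (-0.20; 4 of 17 and -0.10 without the length trend) and 7 of 17 in the KIF3A-/- comparison (-0.053; 0.019 without the first WA09 control and -0.11 without the second). Their most abundant members were the helicase SKIV2L2 at 0.31 and HBS1L at 0.12 in the KIF3B-/- comparison. Of these 3 lists, 2, 8 and 4 genes had an unadjusted p under 0.05 in the KIF3B-/- comparison, where 16.6% of all genes did, and 0 in each in the KIF3A-/- comparison, where 3.71% did. DESeq2 called 0, 3 and 0 in the first and 0 in the second, beside 255 and 1 of all 14216 genes. The 3, given because they were called and not by the naming rule, were the decapping scaffold EDC4 (1.05, DESeq2 adjusted p = 0.00971, edgeR adjusted p = 0.171), the CCR4-NOT scaffold CNOT1 (1.03, 0.00971 and 0.18) and the deadenylase subunit PAN2 (1.94, 0.0493 and 0.186). PAN2 had only 13 and 14 counts in the WTC11 controls (6.0 and 6.3 CPM). It stood at 23.3, 8.69 and 38.8 CPM in the libraries labelled KIF3B-/- and at 31.4 and 37.7 CPM in the WA09 controls.

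Transcripts known to be degraded by the pathway were listed as a readout of its substrates, and 24 of the 26 passed the filter on low counts. In the libraries labelled KIF3B-/-, 17 of 24 had a log2 fold change below 0 (median -0.12). Entirely below the WTC11 controls lay 9, beside 18% of all genes, and entirely above lay 0, beside 16.5%. In the KIF3A-/- library 17 of 24 were above 0 (median 0.13). Above both controls lay 13, beside 33.8% of all genes, and below both lay 3, beside 33%. By edgeR 0 of 24 passed in either, 4 and 1 had an unadjusted p under 0.05, near the 16.6% and 3.71% of all genes, and DESeq2 and limma voom called 0. Without the length trend 9 of 24 were above 0 in the KIF3B-/- comparison (-0.065), and without the second KIF3B-/- library 4 of 24 were (-0.23). The 2 most abundant were the splicing factors SRSF3 at 510 ± 29.3 CPM in KIF3B-/- against 608 ± 16.2 (-0.25 ± 0.088) and SRSF7 at 464 against 556 CPM (-0.26 ± 0.10). In the KIF3A-/- library SRSF3 stood at 603 against 565 CPM (0.095) and SRSF7 at 577 against 579.5 CPM (-0.006). Gene counts add productive and decay-prone isoforms together, so the degraded form of these genes was not measured.

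When that list was divided by kind of gene, a division made after its values were seen, the 8 small nucleolar RNA host genes were below 0 in 7 cases in the KIF3B-/- comparison (median -0.45; -0.19 and 7 of 8 without the length trend) and above 0 in 7 in the KIF3A-/- comparison (0.19). All 7 splicing factors were below 0 in the KIF3B-/- comparison (-0.14; 6 of 7 and -0.27 without the length trend) and 5 of 7 above 0 in the KIF3A-/- comparison (0.066). The KIF3A-/- medians became 0.032 (5 of 8) for the host genes without the first WA09 control and 0.035 (4 of 7) for the splicing factors without the second, against 0.34 for the host genes without the second. The 9 stress and amino acid response genes had 6 above 0 in the KIF3B-/- comparison (0.17) and 5 in the KIF3A-/- comparison (0.21). The former rests on the second KIF3B-/- library, without which 2 of 9 were above 0 (-0.28). In it TRIB3 stood at 258 CPM against 51.6 and 75.1 in the other KIF3B-/- libraries, and UPP1 at 211 against 60.7 and 71.5. The median was 0.10 without the first WTC11 control, 0.78 without the second, 0.48 without the first KIF3B-/- library and 0.42 without the third. No difference between the 2 knockouts was tested for these groups.

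**Figure D4:**
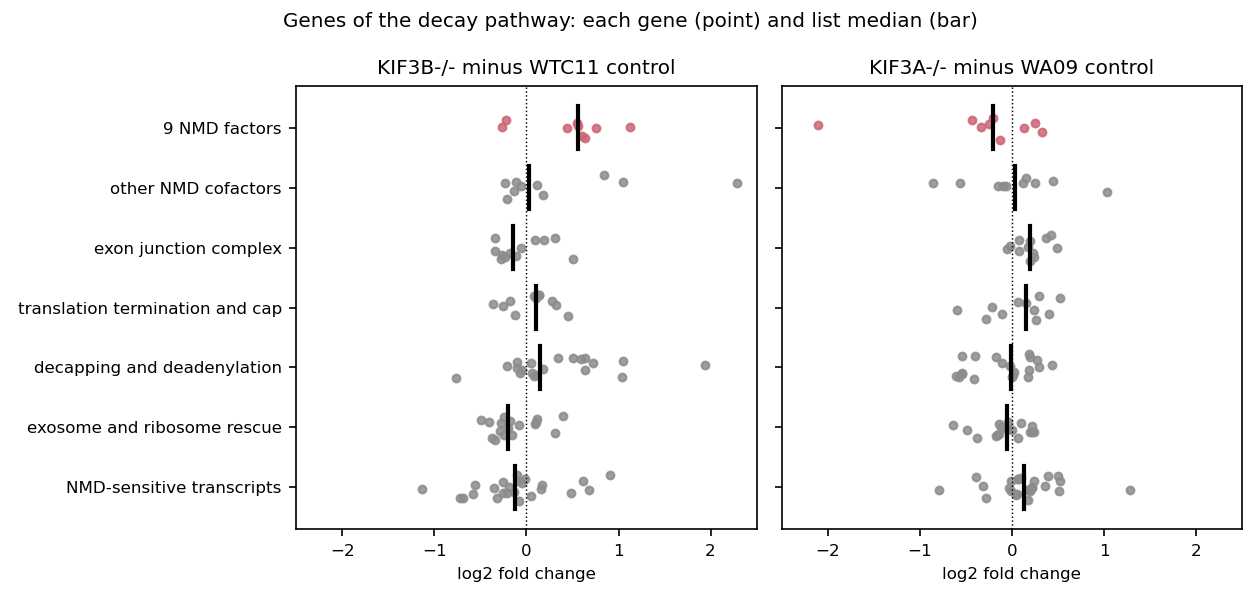
Log2 fold changes of every tested gene (points) and the median (bar) of the 9 factors and of 6 lists of decay machinery and substrates, in the KIF3B-/- and KIF3A-/- comparisons. The 9 factors have the highest median in the KIF3B-/- comparison (0.56), by which the family was chosen. They have the lowest in the KIF3A-/- comparison (-0.21), which became 0.043 without the first WA09 control and 0.052 without the second. The substrates stand at -0.12 and 0.13.

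The kinases related to SMG1 by sequence gave a set of 5. In the KIF3B-/- comparison 4 of 5 were above 0 (median 0.19), and 1 of 5 without the length trend (-0.14) or 2 of 5 with detected genes as a covariate (-0.033). That median was 0.58 without the second WTC11 control and 0.078 without the third KIF3B-/- library. In the KIF3A-/- comparison 3 of 5 were above 0 (0.057), a median that was 0.39 without the first WA09 control, -0.63 without the second and -0.086 with detected genes as a covariate. With all libraries, PRKDC stood at 0.73, ATR at 0.31, MTOR at 0.057, ATM at -0.97 and TRRAP at -1.66 in that comparison. With edgeR 0 of 5 passed in either comparison, 1 and 3 had an unadjusted p under 0.05 (16.6% and 3.71% of all genes), and DESeq2 and limma voom called 0. MTOR, which controls growth in response to nutrients, was at 1.13 ± 0.46 in the KIF3B-/- comparison (edgeR adjusted p = 0.261), above the 0.55 ± 0.39 of SMG1, while the DNA repair kinase PRKDC was at 0.24.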

How the data were processed

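The deposited table holds whole-number read counts per gene for 8 libraries, which the authors did not normalize. The submitters' processing notes name STAR and hg38; version, counter, annotation and strand use: not given in the sources used here. Libraries were prepared with SMARTseq and Nextera XT from polyadenylated RNA, per the labels. Of 58302 rows, 20993 had no gene name; lengths and positions came from GENCODE 29 for 58039 rows matched by identifier. Totals were 2161890 to 2875163 counts.

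Genes were filtered with filterByExpr and tested with edgeR 4.0.16 (quasi-likelihood, robust, TMM) in R 4.3.3, in 1 fit of the 8 libraries with a mean per group (14216 genes) or, for all knockouts against all controls, with line as an additive term (12210 genes). P-values were adjusted over all genes tested by Benjamini-Hochberg, with a threshold of 0.05. The lone KIF3A-/- library was taken to vary like the other groups. CPM use TMM-scaled library sizes, and log2 CPM a prior count of 2. Alternatives were DESeq2 1.42.0, limma 3.58.1 (voom), other scalings, no filter, a length offset (lowess span 0.5), detected genes as a covariate, a guide-number block and leaving out each library. Within groups, libraries differed by more than counting noise (chi-square divided by its degrees of freedom was 5.90 to 8.37). Each was counted as 1 replicate, although such a spread does not show separate clones or cultures. The fit was tested on simulated counts. The members, gene lists and motifs were chosen with earlier results of these data known. All members were named; of each list, genes called by edgeR in the KIF3A-/- or control-line comparison, or else the 2 most abundant, were named; others were named after their values were seen. One gene is not reported here.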

Additional observations from a re-analysis of the deposited data

How the results depend on the processing

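Members called stayed at 0 of 9 in the KIF3A-/- and control-line comparisons under every alternative run. In the KIF3B-/- comparison the members' median of 0.56 was 0.36 with the length trend removed and 0.32 with detected genes as a covariate. Leaving out single libraries gave medians of 0.31 to 0.76 there, -0.21 to 0.052 in the KIF3A-/- comparison and 0.14 to 0.55 over all knockouts. Signs turned in the KIF3A-/- comparison for 4 members, with leave-one-out ranges of -0.30 to 0.043 for UPF1 and -0.72 to 0.20 for UPF2 (above 0 without the first WA09 control), and of -0.43 to 0.052 for UPF3A and -0.51 to 0.075 for UPF3B (above 0 without the second). In the control-line comparison the ranges were -0.071 to 0.32 for SMG5 and -0.28 to 0.63 for UPF2 (lowest without the second WA09 control), -1.22 to 1.14 for SMG6 (lowest without the second WTC11 control), -0.58 to 0.061 for SMG8 (highest without that control), -0.42 to 0.46 for UPF1 (lowest without the first WTC11 control, and -0.070 without the second WA09 control) and -0.14 to 0.35 for UPF3A (lowest without the first WA09 control). UPF2 also stood at -0.026 without the second WTC11 control. Detected genes as a covariate turned SMG5 to -0.035 and UPF1 to -0.18 there. The cause was not tested.

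The replicate block by guide number changed no call of a member and left SMG5 at 1.14 in the KIF3B-/- comparison. The guide 1 minus guide 2 differences of controls and knockouts had r = -0.017 over 14216 genes, which are not independent. With a single control library per guide, this value cannot decide whether libraries of the same guide are paired. Over all genes, edgeR called 0, 4, 0 and 0 in the KIF3A-/-, control-line, KIF3B-/- and all-knockout comparisons, DESeq2 1, 218, 255 and 38, limma voom 0 in each, edgeR without the filter 2, 525, 676 and 154, and edgeR with the block 0, 0, 1 and 0. SMG6 and SMG9 had 5 to 92 counts per library.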
